A study of Mus musculus with 6 samples.

Results

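Chodl Cilp2 tenocyte-like cells are a small set of cells in the lower abdominal muscle (LAM) of the mouse that carry UMIs of fibromodulin and of several genes known from tendon and muscle attachment. They were chosen by the UMIs (unique molecular identifiers, which count captured RNA molecules) of 7 genes in each cell barcode. A barcode needed at least 1000 UMIs, at most 10% of them from mitochondrial genes, a UMI of at least 2 of the 4 genes Chodl, Cilp2, Ptx4 and Thbs4, at least 5 UMIs of Fmod, and no UMI of Wif1 or Pecam1. Of the 53443 barcodes within the limits on depth and mitochondrial UMIs, 564 met the rule. The WT mice gave 89, 122 and 90 of them and the Aromhum mice 95, 59 and 109, in the order of replicates 1 to 3, which all values by mouse follow. Because these genes chose the cells, their levels are given as a description, with no p-value.

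LAM tissue came from 3 wild-type (WT) and 3 Aromhum male mice on the FVB/N background, littermates of 9 to 10 weeks. Aromhum mice carry the human aromatase gene CYP19A1, which makes estrogen from androgen, together with its own regulatory region, and develop scrotal hernias. WT littermates without the human gene were the controls. The muscle was dissociated with enzymes and filtered by size, which removes multinucleated fibers, and the mononuclear cells were sequenced singly on the Chromium platform.

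The libraries held 64958237 to 72876541 UMIs in WT and 92652109 to 111826460 in Aromhum mice. The Chodl Cilp2 cells had a median of 9104 UMIs and 2528.5 genes. By mouse, the median was 7915, 8442 and 7762.5 UMIs in WT and 13765, 6658 and 9978 in Aromhum mice, so the genotypes overlapped in depth. The median share of mitochondrial UMIs was 3.44% to 4.82% over the mice. Of 63175 barcode sequences, 471 were seen in more than 1 mouse. They touched 12 of the 564 cells, and no sequence was shared among the Chodl Cilp2 cells of different mice. Scrublet marked 5 of the cells as doublets. Of all kinds of cells it marked only 4 in WT replicate 2 and 0 in WT replicate 3, so doublets there may have gone unmarked. The columns of the table run 30 times through the mice, and 1 run holds 486 of the 564 cells. The remaining 78 lie in 11 other runs. The run of the 486 holds 15700 barcodes within the limits in all. By the groups defined below, these include 10030 of 14835 other fibroblast-like cells, 741 of 1587 other Fmod-high cells and 192 of 778 Wif1 tenocytes.

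Tenocytes are the fibroblasts of tendon and of the sheets of connective tissue that join muscle to bone and to other muscle. They lay down parallel collagen fibrils, whose width and spacing are set by small proteoglycans such as fibromodulin and by glycoproteins such as the thrombospondins. Scleraxis (Scx) and Mohawk (Mkx) are the transcription factors best known for this lineage, and tenomodulin (Tnmd) is a membrane protein of mature tenocytes.

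The label tenocyte-like was set beside genes that the rule did not use. Several of them, such as Scx, Tnmd and Comp, are among the genes by which the paper named its tenocyte cluster in these samples. They are thus no independent evidence for the label. Scx had a UMI in 51.1% of the Chodl Cilp2 cells and Tnmd in 89.0%. In endothelial cells, which should lack both and so show the background of free RNA, the shares were 1.10% and 1.53%. The median depth was 9104 UMIs in the former and 6679.5 in the latter. After every cell was thinned to 3000 UMIs, which left out 21 Chodl Cilp2 cells and 2611 endothelial cells below that depth, Scx was seen in 36.8% and 0.411%. The UMIs of each mouse were then summed over the cells of a group and given as CPM, the count scaled to a common total for every mouse and group. Scx stood at 196, 262 and 295 CPM in WT and 396, 261 and 346 CPM in Aromhum mice. Tnmd stood at 1785, 1762 and 1891 CPM in WT and 1363, 1167 and 1636 CPM in Aromhum mice. Both genes were thus present in every mouse. The 13 tenocyte markers outside the rule summed to 5634 to 7855 CPM over the 6 mice. The same sum was 11086 to 15848 CPM in the tenocytes with Wif1, 1063 to 1699 CPM in other fibroblast-like cells and 175 to 349 CPM in endothelial cells. Cells with at least 5 Fmod UMIs, no Wif1 and fewer than 2 of the 4 genes had 3347 to 5058 CPM. Chodl Cilp2 cells with exactly 2 of the 4 genes overlapped these, at 3701 to 6966 CPM. Those with 3 or 4 had 6357 to 8618 CPM.

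Markers of cartilage and bone were scarce. The 3 of 10 cartilage markers in the table summed to 4.56 to 51.7 CPM with Hapln1 at 0, and the 5 of 7 bone markers to 8.27 to 41.4 CPM with Bglap at 0. A count of 0 over 564 cells allows a share of cells with a UMI of up to 0.532%, for counting error only. The fibro-adipogenic progenitor (FAP) markers, a list led by Pdgfra and Ly6a that marks the common fibroblasts of muscle, summed to 1609 to 3247 CPM. The same list summed to 1408 to 1954 CPM in endothelial cells and 5673 to 8256 CPM in other fibroblast-like cells.

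The genes of the rule lie on separate chromosomes (GRCm38), and all are protein coding. Chodl, a membrane lectin, is at chr16:78930948-78951733 on the plus strand. Cilp2, a secreted matrix protein of cartilage and muscle attachments, is at chr8:69880369-69887687 on the minus strand. Ptx4, a pentraxin, is at chr17:25120760-25125292 on the plus strand. Thbs4, a thrombospondin of tendon and of the muscle-tendon junction, is at chr13:92751590-92794818 on the minus strand. Fmod is at chr1:134037254-134048277 and Wif1, a secreted Wnt inhibitor, at chr10:121033960-121100650, both on the plus strand. Scx is at chr15:76457452-76459458 on the plus strand, inside Bop1 on the other strand.

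The promoters of 3 of these genes are shown because scleraxis belongs to the basic helix-loop-helix factors, which bind the E-box. The E-box was searched as CANNTG, which reads the same way on both strands, in RefSeq windows (GRCm38.p6) from 250 bases before to 50 after the start, 5′ to 3′ on the strand of the gene, with each match in capitals.
Chodl, chr16:78930698-78930997, plus strand: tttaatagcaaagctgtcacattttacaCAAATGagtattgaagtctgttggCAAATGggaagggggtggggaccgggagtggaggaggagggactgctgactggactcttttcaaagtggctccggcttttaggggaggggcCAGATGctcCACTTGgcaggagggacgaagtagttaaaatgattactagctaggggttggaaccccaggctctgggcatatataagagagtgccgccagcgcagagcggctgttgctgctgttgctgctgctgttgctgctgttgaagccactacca
Cilp2, chr8:69887343-69887642, minus strand: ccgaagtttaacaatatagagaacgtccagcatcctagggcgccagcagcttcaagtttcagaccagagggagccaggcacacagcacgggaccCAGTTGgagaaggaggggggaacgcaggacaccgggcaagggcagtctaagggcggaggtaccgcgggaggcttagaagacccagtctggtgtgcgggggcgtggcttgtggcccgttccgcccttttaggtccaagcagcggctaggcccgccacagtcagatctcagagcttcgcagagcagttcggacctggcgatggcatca
Thbs4, chr13:92794769-92795068, minus strand: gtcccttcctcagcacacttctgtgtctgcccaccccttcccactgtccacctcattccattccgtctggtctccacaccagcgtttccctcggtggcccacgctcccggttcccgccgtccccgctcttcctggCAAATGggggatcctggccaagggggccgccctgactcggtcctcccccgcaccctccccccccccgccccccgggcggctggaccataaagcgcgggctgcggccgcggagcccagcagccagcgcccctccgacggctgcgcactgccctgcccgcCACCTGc
The Chodl window held 4 matches (CAAATG at 2 places, CAGATG and CACTTG), that of Thbs4 held 2 (CAAATG and CACCTG) and that of Cilp2 held 1 (CAGTTG). The motif is common, as 72.3% of 32851 promoter windows of this length hold it. CAGATG or its reverse complement CATCTG was in 17.2% of the windows, among them those of Chodl and of Fmod, whose window is not shown. Of 2 further windows not shown, that of Tnmd held 0 matches of CANNTG and that of Wif1 held 2, without CAGATG or CATCTG. No window was available for Ptx4 or Scx. A match is a description of the letters and not a binding site. The RefSeq start of Cilp2 differs from that of the coordinates given above, and its window lies wholly inside them.

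Within the cells chosen, the 4 genes were seen to unequal extents. Thbs4 had a UMI in 563 of the 564 cells, Chodl in 464 (82.3%), Cilp2 in 357 (63.3%) and Ptx4 in 274 (48.6%). All 4 were seen in 193 cells (34.2%), and Chodl with Thbs4 alone in 147 (26.1%). Chodl stood at 450, 743 and 976 CPM in WT and 176, 314 and 628 CPM in Aromhum mice. Cilp2 stood at 204, 192 and 254 CPM and at 188, 172 and 210 CPM, and Ptx4 at 145, 132 and 242 CPM and at 121, 82.0 and 222 CPM. The 2 genotypes overlapped in each of these 3 genes. Thbs4 was at 4307 to 6684 CPM and Fmod at 2468 to 4649 CPM over the 6 mice.

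The edges of the rule are described by values pooled over mice, which cannot tell a gradient from a mixture of kinds of cell. When pooled over mice, the 614 cells that met all else but carried none of the 4 genes had 14.96 CPM of Scx and 283 CPM of Tnmd, and the 973 with 1 of them had 18.3 and 280 CPM. The 227 cells with exactly 2 had 113 and 821 CPM, the 144 with 3 had 364 and 2117 CPM, and the 193 with all 4 had 555 and 2417 CPM. Scx and Tnmd were thus level between none and 1 of the genes and higher with each gene from there, although the cells with 2 were deeper (median 11230 UMIs) than those with 3 (7305) or 4 (8681). Among the cells with exactly 2, Scx was far higher in Aromhum replicates 1 and 2 than in the other mice, as given below. At the Fmod limit, 20 cells with exactly 5 UMIs had 237 CPM of Scx and 397 CPM of Tnmd, and 23 left out with 4 UMIs had 74.5 and 627 CPM, so the genes lay in opposite order there. The 46 cells left out for 1 Wif1 UMI had 264 CPM of Scx and 2317 CPM of Tnmd, the 240 left out for more Wif1 UMIs had 263 and 3007 CPM, and the 58 left out for a Pecam1 UMI had 255 and 1266 CPM.

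The Chodl Cilp2 cells were not uniform. Of the 13 tenocyte markers outside the rule, 5 were higher in every mouse in the 337 cells with 3 or 4 of the genes (Scx, Tnmd, Kera, Chad and Col11a1), none was lower in every mouse, and 8 were mixed. Among the mixed ones were Comp (mean 340 against 460 CPM, higher in 3 of 6 mice) and Abi3bp (1121 against 1448 CPM, higher in 2 of 6). The 227 cells with exactly 2 held 47.5% of the UMIs. The FAP list summed to 1680 to 4492 CPM in them and to 1038 to 1904 CPM in the cells with 3 or 4. Scx was at 345, 550 and 441 CPM in WT and 480, 373 and 577 CPM in Aromhum mice in the cells with 3 or 4. In those with 2 it was at 38.8, 27.9 and 42.7 CPM and at 299, 174 and 45.1 CPM. All 6 mice had more Scx in the former. The same order held in every mouse for Tnmd (mean 2314 against 831 CPM), for Kera, the corneal and tendon proteoglycan keratocan (400 against 136 CPM), and for Chad, the matrix protein chondroadherin (188 against 44.8 CPM). The reverse order held in every mouse for Sfrp1, a secreted Wnt modulator, which was at 3.45 to 26.6 CPM in the cells with 3 or 4 and at 157 to 362 CPM in those with 2. It also held for Pdgfra, the receptor that marks FAPs (mean 33.0 against 130 CPM), for Col14a1, a fibril-associated collagen (195 against 728 CPM), and for Pnoc, the nociceptin precursor (503 against 2795 CPM). Of 232 genes of the lists at 20 CPM or more, those of the rule left out, 17 were higher and 54 lower in every mouse in the cells with 3 or 4. As the number of genes seen is itself read from these cells, no test was run.

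**Figure D1:**
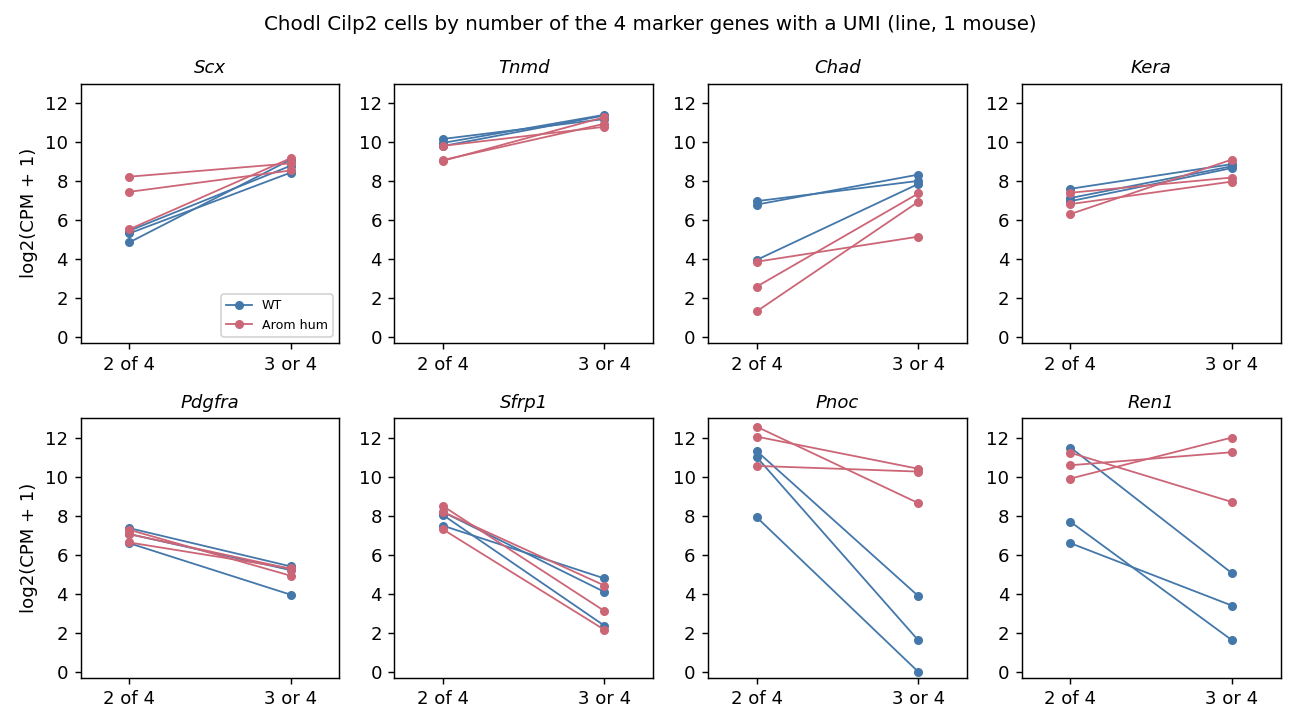
Level of 8 genes, as log2(CPM + 1), in Chodl Cilp2 cells with exactly 2 and with 3 or 4 of Chodl, Cilp2, Ptx4 and Thbs4. Each line is 1 mouse; Scx and Tnmd are higher with 3 or 4 in all 6 mice, and Sfrp1 and Pdgfra are lower in all 6.

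The first group set beside the Chodl Cilp2 cells was 778 cells that met Fmod of at least 5 UMIs and carried Wif1, called Wif1 tenocytes here. This group has no limit on the 4 genes. It includes the 46 cells with 1 Wif1 UMI and the 240 with more that met the rest of the rule. The Wif1 tenocytes shared the tendon genes at other levels. Scx averaged 293 ± 70.5 CPM (SD, n = 6 mice) in Chodl Cilp2 cells and 188 ± 77.7 CPM in Wif1 tenocytes and was higher in the former in 5 of 6 mice. Tnmd averaged 1601 and 2496 CPM and was lower in Chodl Cilp2 cells in 6 of 6 mice. The gap was wider for Comp, the cartilage oligomeric matrix protein, which averaged 395 CPM against 2288 CPM (median within-mouse log2 ratio −2.86). The median depth in Wif1 tenocytes was 9245.5 UMIs over all mice, but in Aromhum replicate 1 it was 8002 UMIs against 13765 in the Chodl Cilp2 cells. These and the following ratios are descriptions, since both groups were cut from the same values.

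Beside Wif1 tenocytes, 76 genes were higher and 62 lower in all 6 mice with a median ratio of at least 2-fold, of 5187 genes at 20 CPM or more. Among the 15 with the widest median ratio on the higher side were Mgp, the matrix Gla protein that restrains mineralization (mean 8821 against 1674 CPM), and Postn, the matricellular protein periostin (1399 against 227 CPM). That side also held Mmp3, the protease stromelysin-1 (530 against 119 CPM), Timp1, an inhibitor of such proteases (870 against 299 CPM), and Ltbp2, a microfibril protein (35.1 against 6.26 CPM). Mmp3 ranged widely, from a log2 ratio of 0.17 to 5.81 over the mice. On the lower side were Igfbp3, a carrier of insulin-like growth factors (75.6 against 484 CPM), Angptl7, a secreted angiopoietin-like protein (29.6 against 231 CPM), and Pcolce2, an enhancer of procollagen cleavage (51.4 against 225 CPM). Rxfp1, the relaxin receptor (29.6 against 247 CPM), and Ankrd1, an ankyrin repeat protein of stretched cells (8.06 against 62.7 CPM), were lower as well. Restricting the Chodl Cilp2 cells to those with 3 or 4 of the genes widened the counts to 148 higher and 184 lower.

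Other fibroblast-like cells, 14835 barcodes with Pdgfra and Col1a1 and under 5 UMIs of Fmod, had little Scx and Tnmd, which averaged 1.44 and 29.3 CPM in them. Other tenocyte markers were present, such as Abi3bp at 454 CPM and Col12a1 at 305 CPM. Chad (120 against 1.23 CPM), Kera (277 against 5.11 CPM) and Col11a1, a minor fibrillar collagen (278 against 10.2 CPM), were higher in Chodl Cilp2 cells in every mouse. Among the 15 widest ratios were also Insc, an adaptor of the mitotic spindle (46.8 against 0.461 CPM), Gas2, an actin and microtubule linker (81.8 against 1.51 CPM), and Ptn, the growth factor pleiotrophin (190 against 18.0 CPM). On the lower side were Efemp1, an elastic fiber glycoprotein (36.1 against 266 CPM), Pla1a, a phospholipase (21.9 against 228 CPM), and Plac8 (14.5 against 144 CPM). By the same count, 156 genes were higher and 269 lower, of 5388. Their median depth was 10992 UMIs. Against the 1587 remaining cells with at least 5 Fmod UMIs, which had no Wif1 and fewer than 2 of the 4 genes, 91 genes were higher and 195 lower of 5400, and with 3 or 4 of the genes 175 and 355. Among the lower ones were the epithelial and mesothelial genes Krt19 (20.1 against 130 CPM), Krt8 (11.5 against 81.9 CPM) and Upk3b (21.8 against 166 CPM).

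**Figure D2:**
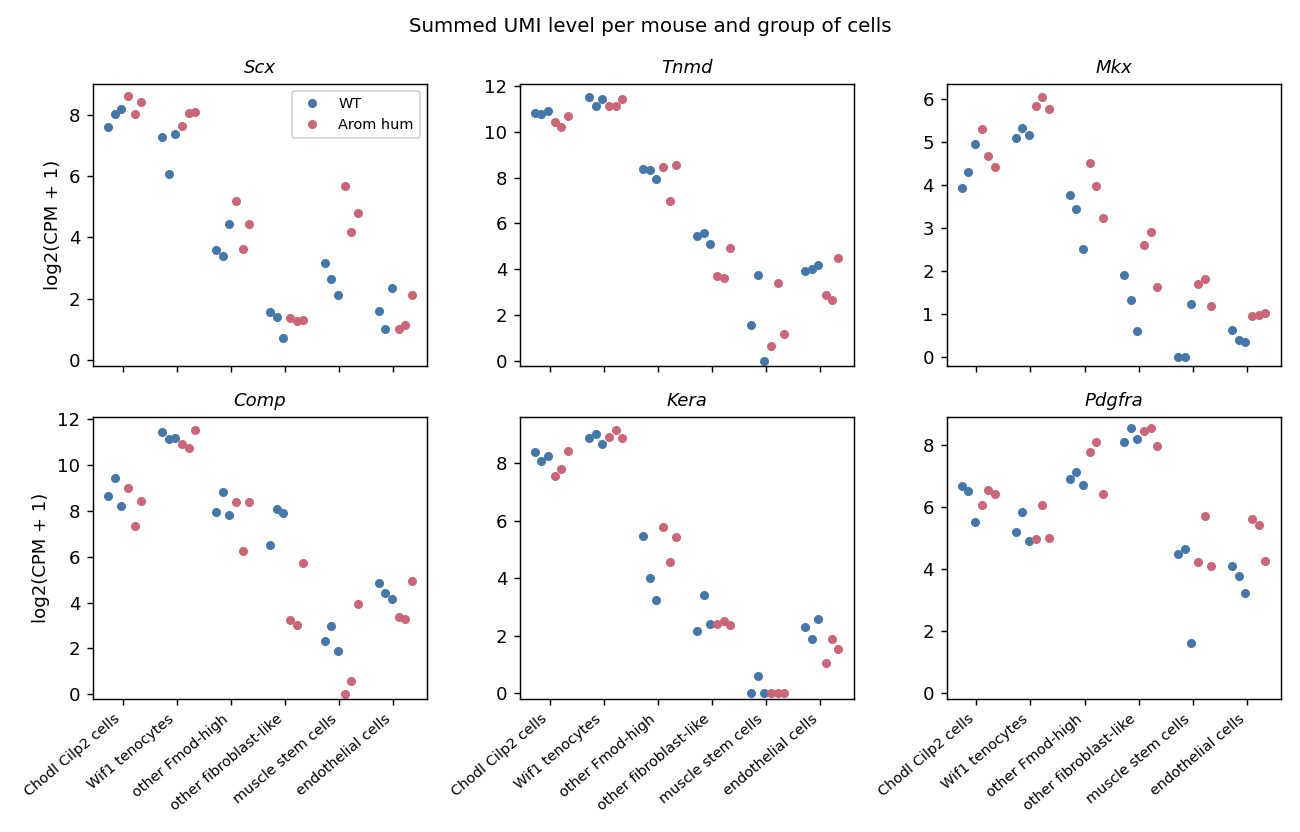
Level of Scx, Tnmd, Mkx, Comp, Kera and Pdgfra, as log2(CPM + 1), in 6 groups of cells, with 1 point for each mouse. Scx and Tnmd are high in Chodl Cilp2 cells and Wif1 tenocytes in all 6 mice, Comp averages 395 CPM in the first and 2288 CPM in the second, and Pdgfra was part of the choice of the other fibroblast-like cells.

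Markers of other cell types were present at low sums. Endothelial markers, with Pecam1 at 0 by the rule, summed to 24.3 to 108 CPM, macrophage markers to 6.55 to 296 CPM, glial markers to 10.6 to 212 CPM and muscle stem cell markers to 34.5 to 302 CPM. T cell markers reached at most 4.56 CPM, with Cd3d and Trac at 0. Smooth muscle and pericyte markers summed to 302 to 464 CPM in WT and 354 to 1276 CPM in Aromhum mice. Single mice stood out for markers of muscle fibers (957 CPM in WT replicate 2 and 633 CPM in Aromhum replicate 3) and of mesothelium (571 CPM in Aromhum replicate 3). The list of 4 adipocyte markers had 0 genes in the table, so adipocytes could not be assessed.

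The first question between genotypes was whether Aromhum LAM held fewer or more of these cells. They made up 1.04%, 1.65% and 1.33% of the cells of WT mice (1.34 ± 0.304%, SD, n = 3) and 0.889%, 0.484% and 1.38% of the cells of Aromhum mice (0.918 ± 0.450%). The groups overlapped, and the difference of −0.424 percentage points had p = 0.3 in a two-sided exact permutation test over the mice, in which 3 against 3 can give no p below 0.1. Among fibroblast-like and Fmod-high cells together, their share was 3.52%, 6.02% and 7.10% in WT and 2.42%, 1.13% and 3.90% in Aromhum mice (exact permutation p = 0.2). That denominator itself moved, as other fibroblast-like cells were 18.7 ± 5.27% of WT and 33.4 ± 5.24% of Aromhum cells (exact permutation p = 0.1). Of Chodl Cilp2 cells and Wif1 tenocytes together, the former were 43.2%, 42.5% and 44.1% in WT and 47.0%, 43.7% and 35.4% in Aromhum mice, with means of 43.3 ± 0.807% and 42.0 ± 6.0% (exact permutation p = 0.9).

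**Figure D3:**
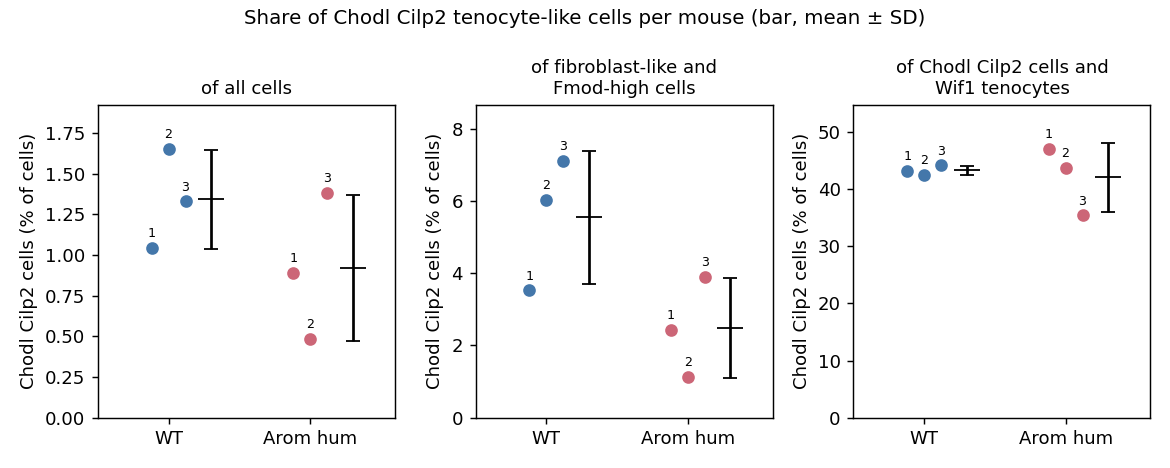
Chodl Cilp2 cells as a percentage of all cells, of fibroblast-like and Fmod-high cells, and of Chodl Cilp2 cells and Wif1 tenocytes, by genotype. Points are mice and bars the mean ± SD (n = 3); the means are 1.34% and 0.918%, 5.55% and 2.48%, and 43.3% and 42.0% for WT and Aromhum.

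The genotypes were then compared gene by gene on the summed UMIs. The sums held 763708 to 1171416 UMIs in WT and 658328 to 1451022 UMIs in Aromhum mice. In edgeR, with p-values adjusted by Benjamini-Hochberg over the 7360 genes tested, 16 genes (0.217%) passed an adjusted p of 0.05, 9 higher in Aromhum mice (0.122%) and 7 lower (0.0951%). At an unadjusted p under 0.05 were 1397 genes (19.0%). The human CYP19A1 transgene checks the labels. It had no count in the WT sums, nor in any of the 6 groups of WT cells, and 48, 21 and 51 counts in the Aromhum sums (33.1, 31.9 and 36.9 CPM). That is at least 31.9-fold higher than the floor of 3 counts over the WT sums together (adjusted p = 0.0103, edgeR).

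Among the higher genes were secreted proteins of the matrix. Spon1, the adhesion protein spondin-1, was at 18.9, 19.6 and 18.3 CPM in WT and 163, 283 and 103 CPM in Aromhum mice (log2 fold change 3.17 ± 0.36 SE, adjusted p = 0.0191, edgeR). Fn1, fibronectin, was at 725, 760 and 715 CPM and at 2588, 2994 and 1521 CPM (1.63 ± 0.24, adjusted p = 0.0416). Neither gene overlapped between genotypes. Nog, the BMP antagonist noggin, rose from 4.72, 6.83 and 2.62 CPM to 43.4, 28.9 and 34.0 CPM (2.78 ± 0.36, adjusted p = 0.0269). The chemokine Cxcl14 was at 43.7, 77.7 and 96.9 CPM and at 267, 334 and 193 CPM (1.80, adjusted p = 0.0424). The remaining 4 were Mest, an imprinted gene (1.76), C1qtnf6, a secreted relative of adiponectin (1.85), Pdia5, a protein disulfide isomerase of the endoplasmic reticulum (1.73), and the cell cycle kinase Cdk6 (3.63), which was at 1.18 to 1.71 CPM in WT and 11.6 to 31.9 CPM in Aromhum mice. The WT values of Cdk6 rest on very few UMIs, so the size of its fold change is uncertain.

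The gene most abundant among those that fell was Myoc, the secreted protein myocilin. It was at 947, 1235 and 733 CPM in WT and 62.0, 141 and 247 CPM in Aromhum mice (log2 fold change −2.76, adjusted p = 0.0421, edgeR). Id2, an inhibitor of helix-loop-helix factors that BMP signals induce, was at 209, 218 and 237 CPM and at 79.9, 109 and 120 CPM (−1.16, adjusted p = 0.0421). Both genes were lower in every Aromhum mouse than in any WT mouse. Myoc, a gene of the FAP list, averaged 348 CPM in the cells with 3 or 4 of the genes and 798 CPM in those with exactly 2, and when only the former were summed, 12 of the 16 genes were tested, all in the same direction, with Spon1 and Fn1 past the threshold. The cells with exactly 2 were 43.8%, 46.7% and 31.1% of the Chodl Cilp2 cells in WT and 40.0%, 47.5% and 33.9% in Aromhum mice. S100a5, a calcium-binding protein, was at 92.1, 111 and 44.5 CPM and at 6.20, 12.2 and 13.8 CPM (−3.04, adjusted p = 0.0269). Egfl6, a secreted EGF-repeat protein (−1.80), Angptl7 (−2.04), the class I histocompatibility gene H2-Q4 (−2.11) and the long noncoding RNA Gm26669 (−1.58) also fell. H2-Q4 belongs to a family of near-identical copies and is uncertain. Angptl7 lies wholly inside Mtor, and Gm26669 shares 4967 bases with Zfp36l1 and Myoc 2501 bases with Myocos, on opposite strands. Fn1, C1qtnf6, Mest, Cdk6 and H2-Q4 also share bases with a gene on the opposite strand, and Mest and Pdia5 with one on the same strand. Whether the counting used strand is not given in the sources used here.

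The calls leaned on single mice and on which cells entered. Without WT replicate 2 no gene passed (1117 at an unadjusted p under 0.05), without WT replicates 1 or 3 or Aromhum replicates 1 or 2 there were 2 to 6, and without Aromhum replicate 3 there were 616. With the limit on mitochondrial UMIs at 5% there was 1, under the study's limits on cells 0 (153 of 2733 genes at an unadjusted p under 0.05), and with DESeq2 there were 164. The study's limits kept only 38, 29 and 36 of the Chodl Cilp2 cells in WT and 15, 21 and 39 in Aromhum mice. Of the 564 cells, 287 had over 2500 genes. The study also removed outlying cells by their deviation from the median, a step that its limits as used here leave out. The 16 genes kept their direction in every setting in which they were tested. That adds no support, since the settings reuse the same mice and the genes were picked there without overlap of the genotypes.

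**Figure D4:**
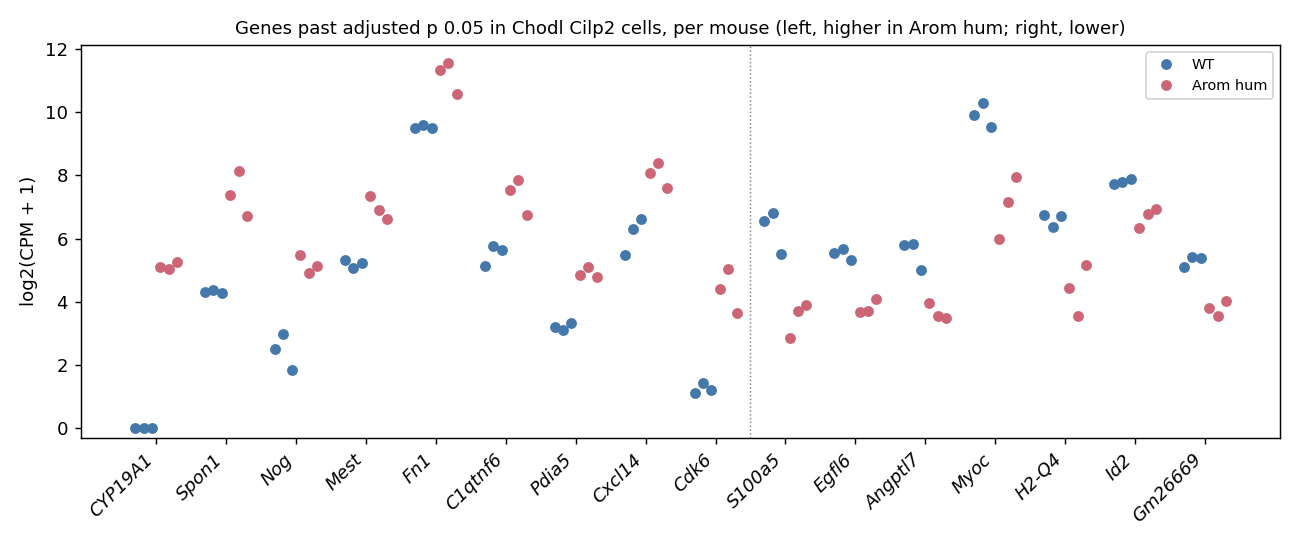
Level of the 16 genes that passed the test, as log2(CPM + 1), in the Chodl Cilp2 cells of each mouse. Points are mice, 3 of each genotype; 9 genes are higher and 7 lower in Aromhum mice, and in none of the 16 do the genotypes overlap.

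No gene of the tendon lists passed the test. The lists are counted without the genes of the rule. All 13 tenocyte markers outside the rule were tested, 8 had a positive log2 fold change and none passed (median 0.37, against 0.0043 over all 7360 genes). Every Aromhum mouse was above every WT mouse in 3 of the 13, against 15.1% of all genes. The reverse held in 2, Tnmd and Chad, against 9.61% of all genes. Scx was at 0.37 ± 0.21 SE on the log2 scale (adjusted p = 0.378, edgeR) and Tnmd at −0.44 ± 0.17 (adjusted p = 0.203), with Tnmd below every WT mouse in each Aromhum mouse. Chad was at 125, 205 and 208 CPM in WT and 66.2, 22.8 and 94.9 CPM in Aromhum mice (adjusted p = 0.0930). The 7 tenocyte progenitor genes all had a negative value (median −0.83) and none passed. In 2 of the 7 every WT mouse was above every Aromhum mouse, which held for 9.61% of all genes tested. Their sum was 5560 to 6622 CPM in WT and 3180 to 5444 CPM in Aromhum mice.

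Most fibrillar and fibril-associated collagens had a positive value. Of 12 tested of 13, 11 had a positive log2 fold change with a median of 0.95, none passed, and in 9 every Aromhum mouse was above every WT mouse, which held for 15.1% of all genes tested. Col1a1, a chain of type I collagen, was at 5063, 4277 and 4431 CPM in WT and 13174, 12201 and 7935 CPM in Aromhum mice (1.22 ± 0.21, adjusted p = 0.0507, edgeR). Col1a2, the other chain, had 1.20 (adjusted p = 0.0514), and Col3a1, type III collagen, had 1.12 (adjusted p = 0.0654). These values missed the threshold by a small margin. Among the 18 collagen processing genes tested, the median was 0.54 and 9 had the Aromhum mice above, with Adamts2, which cleaves the procollagen amino end, at 0.94 (adjusted p = 0.0873).

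The small leucine-rich proteoglycans lay on the other side. Of 11 tested, 9 had a negative value with a median of −0.55, none passed, and in 6 every WT mouse was above every Aromhum mouse, against 9.61% of all genes. Decorin (Dcn), which binds collagen fibrils, was at 30657, 27626 and 24187 CPM in WT and 15856, 13876 and 21734 CPM in Aromhum mice (−0.74, adjusted p = 0.109, edgeR). Bgn, biglycan, went the other way at 0.30 (adjusted p = 0.359), and Fmod, a gene of the rule, overlapped between genotypes.

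Of 18 immediate early and dissociation stress genes, 17 had a negative log2 fold change (median −0.63), and none passed. In 11 of the 18, every WT mouse was above every Aromhum mouse, against 9.61% of all genes. Fos stood at −1.10 (adjusted p = 0.0748, edgeR), Egr1 at −0.91 (adjusted p = 0.0820) and the heat shock gene Hspa1a at −1.38 (adjusted p = 0.0507). In the cells with 3 or 4 of the genes the median of the list was −0.40. The study's limits of at most 2500 genes and 5% mitochondrial UMIs per cell kept 15 to 39 Chodl Cilp2 cells per mouse. Under them these 3 turned positive (Fos 0.24, Egr1 0.22, Hspa1a 0.23). The part of the dissociation in these values was not tested. The study's own gene lists of the 2 hernia-associated fibroblast groups, which it drew from these samples and which are thus no independent evidence of direction, were positive throughout: 13 of 13 for the Esr1-high list (median 1.03) and 15 of 15 for the Mmp3-high list (median 1.40), with Cxcl14 the 1 gene that passed. Of all 7360 genes, 3706 had a positive value. Every Aromhum mouse was above every WT mouse in 4 of the 13 and 8 of the 15, against 15.1% of all genes.

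**Figure D5:**
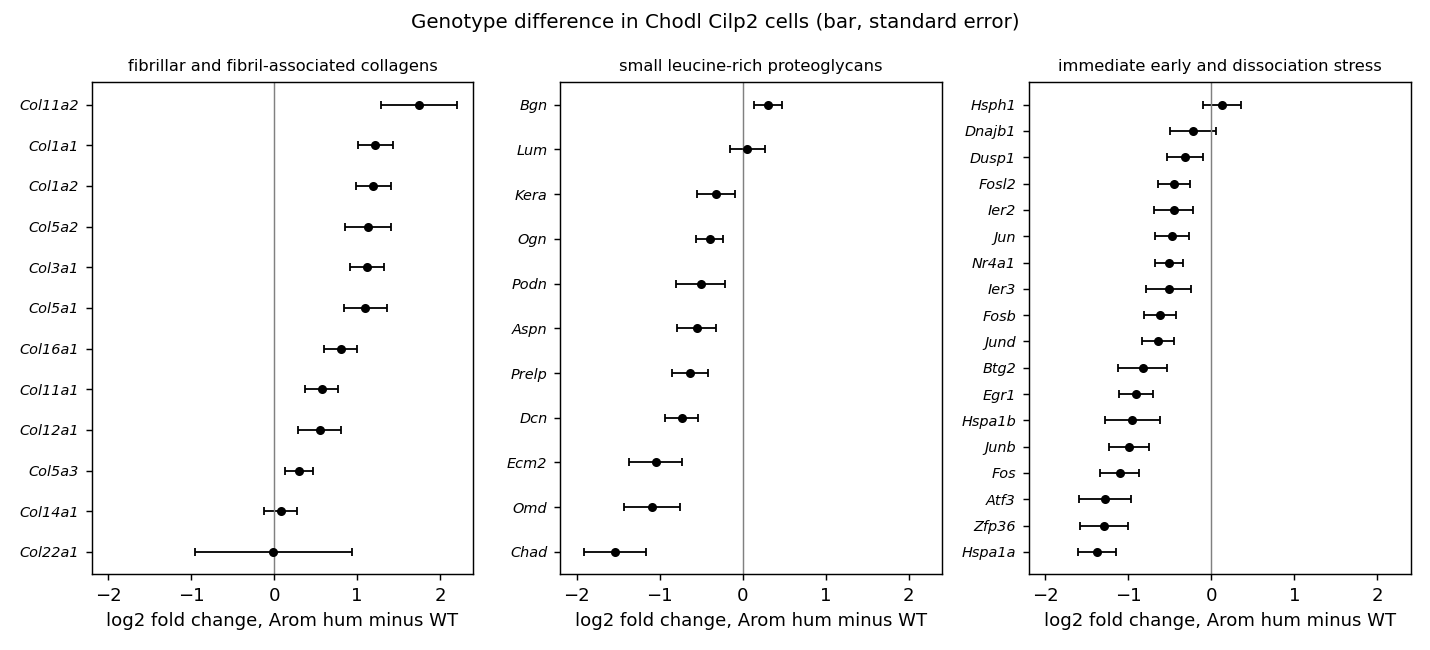
Log2 fold change, Aromhum over WT, with its SE for the genes of 3 lists in Chodl Cilp2 cells. Fibrillar and fibril-associated collagens have a median of 0.95, small leucine-rich proteoglycans without Fmod −0.55 and immediate early genes −0.63, and no gene shown passed the adjusted threshold.

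The other lists are given by their median log2 fold change and by how many genes had every Aromhum mouse above every WT mouse, which held for 15.1% of all genes. These were 0.29 with 3 of 9 for the network and microfibril collagens, 0.10 with 5 of 14 for matricellular genes, 0.14 with 2 of 14 for elastic fiber genes and 0.57 with 4 of 13 for proteases and inhibitors. They were 0.22 with 0 of 12 for Wnt genes, −0.086 with 3 of 8 for the insulin-like growth factor system and 0.78 with 4 of 11 for complement genes. The sex steroid genes, without the transgene that defines the genotype, had 0.79 with 3 of 9. The 11 tendon and mechanical transcription factors had −0.40, and 5 of them had every WT mouse above, against 9.61% of all genes. No gene of these lists passed. Against 0.122% of all genes called higher and 0.0951% called lower, of 19 TGF-beta and BMP genes 1 passed (Id2, lower, list median −0.48, 5 of 19 with every WT mouse above), of 10 FAP genes 1 (Myoc, lower, 0.10) and of 14 chemokines 1 (Cxcl14, higher, 0.48). Within these lists, Nppc, C-type natriuretic peptide, was at 6.83 to 58.9 CPM in WT and 212 to 635 CPM in Aromhum mice (adjusted p = 0.0552), and Igf1, the growth factor, at 301 to 405 and 587 to 1473 CPM (adjusted p = 0.0708). Postn, periostin, was at 744 CPM on average in WT and 2054 CPM in Aromhum mice (adjusted p = 0.0826, edgeR).

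When only the 337 cells with 3 or 4 of the genes were summed, a choice made after seeing the data, 4 of 5147 genes passed (0.0777%), all higher in Aromhum mice. Spon1 (2.80, adjusted p = 0.00226, edgeR) and Fn1 (1.42, adjusted p = 0.0163) were among the 16 above. The other two were Pnoc and Ren1, a renin gene, both of the study's Esr1-high list, whose median here was 2.20 over 7 genes tested. Pnoc was at 13.8, 0 and 2.07 CPM in WT and 402, 1235 and 1366 CPM in Aromhum mice (7.57, adjusted p = 0.00226). Ren1 was at 32.2, 9.51 and 2.07 CPM and at 2459, 418 and 4146 CPM (7.35, adjusted p = 0.0133). Both genes were far apart between genotypes here, while in the cells with exactly 2 genes Pnoc was at 2566, 243 and 2070 CPM in WT and 6097, 1511 and 4284 CPM in Aromhum mice. In endothelial cells, Pnoc was at 257, 42.5 and 38.5 CPM in WT and 714, 285 and 403 CPM in Aromhum mice, and Ren1 at 498, 8.58 and 35.3 CPM and at 1711, 586 and 784 CPM. The part of free RNA in the 2 genes was not tested.

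Last, the genotype effect in Chodl Cilp2 cells was set against that in other cells with an interaction term in edgeR. In Wif1 tenocytes themselves, 3 of 7369 genes passed as higher (0.0407%) and 4 as lower (0.0543%) in Aromhum mice. The difference of effects between the 2 groups passed for 1 of 8270 genes (0.0121%). This was Rgs5, a regulator of G-protein signaling and a pericyte marker, which was at 49.6, 90.5 and 27.5 CPM in WT and 0.689, 1.52 and 10.1 CPM in Aromhum Chodl Cilp2 cells. In Wif1 tenocytes it was at 13.7, 25.5 and 17.8 CPM and at 41.5, 16.7 and 91.8 CPM. The effects differed by −5.20 on the log2 scale (adjusted p = 0.00279), while within the Chodl Cilp2 cells the effect of −3.68 had an adjusted p of 0.0552. Of the pericyte genes beside it, Cspg4 was at 13.1 to 18.9 CPM in WT and 3.45 to 15.9 CPM in Aromhum cells, and Acta2 at 56.3 to 133 and 53.8 to 374 CPM. The 6 smooth muscle and pericyte markers, Rgs5 among them, were also summed. In Chodl Cilp2 cells the sum was 302 to 464 CPM in WT and 354 to 1276 CPM in Aromhum mice. In Wif1 tenocytes it was 135 to 343 CPM in WT and 392 to 980 CPM in Aromhum mice. The part of pericyte RNA in the Rgs5 values was not tested.

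Against other fibroblast-like cells, where 1126 of 13767 genes passed the genotype test as higher (8.18%) and 892 as lower (6.48%), 8 of 11817 interactions passed (0.0677%), 4 in each direction (0.0338%). Col12a1, a fibril-associated collagen, was at 570, 481 and 674 CPM in WT and 1032, 1060 and 536 CPM in Aromhum Chodl Cilp2 cells, and at 104 to 153 CPM in WT and 291 to 597 CPM in Aromhum other fibroblast-like cells, a difference of effects of −1.40 (adjusted p = 0.0492, edgeR). Inhba, a subunit of activin, was at 99.5 to 137 and 115 to 363 CPM in the former and 47.1 to 52.8 and 217 to 633 CPM in the latter (−2.36, adjusted p = 0.0191). For both genes the genotypes lay farther apart in the other fibroblast-like cells. Cxcl14 was the reverse, as the effect was 1.80 in Chodl Cilp2 cells and 0.60 in the others (difference 1.23, adjusted p = 0.0303). Tgfbi, a matrix protein that TGF-beta induces, had effects of −0.996 and −2.12 (difference 1.17, adjusted p = 0.0492). The other fibroblast-like cells were not split by kind, and the paper reports that its hernia-associated fibroblast groups came mostly from Aromhum mice. The part of such a change in the mix of cells in these effects was not tested. Without WT replicate 2 none of the 8 remained past the threshold, without any 1 of WT replicates 1 and 3 and Aromhum replicates 1 and 2 there were 1 or 2, and without Aromhum replicate 3 all 8 remained.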

How the data were processed

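Single-cell RNA sequencing of LAM covered 3 WT and 3 Aromhum mice. The authors deposited 1 table of raw UMI counts for 16494 genes and 63647 barcodes, each named for its mouse, with no normalization. The submitters' processing notes name Cell Ranger 3.0.2 and mm10, and the paper adds the human CYP19A1 gene to the reference. How the gene set was reduced is not given in the sources used here. Library totals and depth stand in the report.

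The cells, gene lists and comparison groups were chosen with earlier results of these data known. Counts were summed per mouse and group, in CPM where levels are shown. Genotypes and interactions were tested with edgeR 4.0.16 in R 4.3.3 (TMM, its filter on low counts, quasi-likelihood test, Benjamini-Hochberg threshold 0.05), and shares with an exact permutation test (numpy 2.4.6). The paper's test over single cells was not used, since cells of a mouse are not replicates. Ratios to other groups are within-mouse log2(CPM + 1) and carry no test. The genes of the rule and CYP19A1 were left out of the list counts. Wif1 tenocytes, other Fmod-high and other fibroblast-like cells had no Pecam1 UMI, and endothelial cells had Cdh5 and Pecam1.

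Named genes were those of the rule and Scx, list genes that passed or else had the highest level, up to 12 called genes per direction, and some of the 15 widest ratios per direction among genes at 20 CPM or more. Near-threshold genes, Pnoc and Ren1, and the genes of the comparison by number of genes seen were chosen after their values were seen. Doublets were marked with Scrublet (scanpy 1.11.5) and kept. Alternatives were DESeq2 1.42.0, other size factors and filters, other limits on cells, thinning to 3000 UMIs, a replicate block and each mouse left out. 1 WT and 1 Aromhum mouse were processed on each date, but the labels do not say which, so date was no term. Mice of a genotype differed beyond sampling noise (chi-square per degree of freedom 4.40 to 12.6). Tested on simulated data for the genotype comparison over 7343 genes, edgeR recovered 39.3% of 2-fold and 88.3% of 4-fold changes, with 3.98% of calls false. The simulation drew each gene on its own, so it does not cover a mouse that departs in many genes at once. Intervals and floors cover counting error only.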

Additional observations from a re-analysis of the deposited data

Results flagged for a closer look

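In 9 genes the effect of genotype differed between the Chodl Cilp2 cells and another group of cells by an interaction test in edgeR. Values are differences of log2 fold changes, Chodl Cilp2 cells minus the other group. Against Wif1 tenocytes this was Rgs5 (−5.20, from −3.68 in Chodl Cilp2 cells and 1.44 in Wif1 tenocytes, adjusted p = 0.00279), which passed in every alternative run but the mitochondrial limit of 5%.

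Against other fibroblast-like cells the genotype effect was lower in Chodl Cilp2 cells for Inhba (−2.36, effects 0.79 and 3.15), Col12a1 (−1.40, effects 0.55 and 1.98), Slc16a6, a monocarboxylate transporter family gene (−3.87, effects 0.21 and 4.34), and Kdr, a VEGF receptor (−2.25, effects 0.09 and 2.41). It was higher for Cxcl14 (1.23, effects 1.80 and 0.60), Vit, the matrix protein vitrin (2.32, effects 0.19 and −2.09), Tgfbi (1.17, effects −0.996 and −2.12) and Dtd1, a D-aminoacyl-tRNA deacylase (1.94, effects 1.47 and −0.47). Slc16a6 was at 18.8 to 62.9 CPM in the Chodl Cilp2 cells of the 6 mice, and in other fibroblast-like cells at 0.761 to 3.12 CPM in WT and 11.4 to 52.5 CPM in Aromhum mice. Vit was at 17.1 to 32.7 CPM in Chodl Cilp2 cells, and in other fibroblast-like cells at 21.6 to 42.6 CPM in WT and 5.76 to 11.9 CPM in Aromhum mice. Adjusted p-values (edgeR) were 0.0191 for Inhba, 0.0303 for Cxcl14 and 0.0492 for the other 6. The part of a changed mix of kinds of cell among the other fibroblast-like cells was not tested. In the cells with 3 or 4 of the genes, Inhba, Vit, Col12a1, Slc16a6 and Dtd1 stayed past the threshold. With a mitochondrial limit of 5% Inhba, Vit, Tgfbi and Slc16a6 did. Without WT replicate 2 none of the 8 did, without WT replicates 1 or 3 there were 2, without Aromhum replicates 1 or 2 Inhba alone, and without Aromhum replicate 3 all 8.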

How the results depend on the processing

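The 16 genotype calls became 274 with no filter on low counts, 200 with a replicate block, 164 with DESeq2, 40 with the 1 run of columns that holds most of the cells, 5 with Fmod of at least 3 UMIs, 4 with at least 3 of the 4 genes, 1 with a mitochondrial limit of 5%, and 0 under the study's limits of at most 2500 genes and 5% mitochondrial UMIs, where 2733 genes were tested and 153 had an unadjusted p under 0.05. Leaving out 1 mouse gave 0 (WT replicate 2) to 616 (Aromhum replicate 3). RLE or no size factors, Fmod of at least 10 and doublets left out gave 16 to 20. Whether replicate numbers pair the mice is undecided, as same-numbered mice correlated at 0.123, 0.0446 and 0.0319 in their deviations over 5078 genes, and not every mouse correlated best with its own number. The interaction calls against Wif1 tenocytes (1) became 240 with no filter, 3 with the 5% limit, 11 with at least 3 of the 4 genes, and 1 to 70 with 1 mouse left out. Those against other fibroblast-like cells (8) became 119 with no filter, 18 with at least 3 of the 4 genes, and 0 to 164 with 1 mouse left out. Genes apart from Wif1 tenocytes in every mouse, with a median of at least 2-fold, numbered 184 higher and 167 lower after thinning, and 148 and 184 with at least 3 of the 4 genes. Beside other Fmod-high cells there were 156 and 286 after thinning. Those lower than in other fibroblast-like cells numbered 469 after thinning and 419 with at least 3 of the 4 genes. After thinning, every group was chosen again by its thinned UMIs, which left 34 to 80 Chodl Cilp2 cells per mouse. The thinned and unthinned counts thus compare different sets of cells. The differences in share of all cells and of fibroblast-like and Fmod-high cells kept their sign in every alternative run. The study's limits kept 15 to 39 Chodl Cilp2 cells per mouse. Under them the log2 fold changes of Egr1 (0.22), Fos (0.24), Hspa1a (0.23), Kera (0.24) and Prg4 (0.15) turned positive. The cause of these changes was not tested. At this depth and number of mice, 2-fold changes were recovered in 39.3% of simulated cases for the genotype test. For the interactions this was 14% against Wif1 tenocytes and 24% against other fibroblast-like cells.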
